A study of Mus musculus with 12 samples.

Results

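Cand2, Fam69a, Nkiras1, Sphk2, Tbc1d8, Tlcd1 and Wdr38 are 7 mouse genes whose exons lie across from a gene of a cytoplasmic ribosomal protein, and that had more counts than this ribosomal protein gene. They were chosen by name from the 24421 genes of a count table, for this position and for their high counts, and all 7 were found in the table. Their abundance next to the ribosomal protein gene was therefore used in choosing them and is given here as a description, without a test. The choice does not name their response to the treatments, but it was made with earlier results of these data known. The RNA came from SMCCs, an immortalized line of small cholangiocytes, the epithelial cells that line the small bile ducts. Cells grown in EMEM were transfected for 24 hr with RNAiMAX and either a control siRNA (si-CTL) or an siRNA against the β-catenin gene Ctnnb1 (si-Ctnnb1, labelled si-bcatenin). Others were transfected for 48 hr with Lipofectamine 3000 and either an eGFP plasmid (eGFP) or a plasmid for S45Y, a stable β-catenin mutant (S45Y). The plasmid for S45Y adds β-catenin to cells that keep their own Ctnnb1 gene. Each of the 4 groups has 3 libraries of this 1 cell line, and the labels do not say whether they came from separate cultures, so p-values measure the spread between these libraries.

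Ribosomal proteins are assembled with ribosomal RNA into the subunits that make protein, and their mRNAs are among the most abundant of growing cells. Most of their genes are short, and the mouse genome holds many processed pseudogenes of near-identical sequence, so counts of ribosomal protein genes are uncertain. Mammalian genes often overlap at their ends, either tail to tail, where the last exons of convergent genes share bases, or head to head, where divergent genes start close together. An RNA-seq read from a shared stretch can be placed on the right gene only if the library keeps the strand and the counting uses it. The authors counted reads with HTSeq, and its strand setting and the gene annotation are not given in the sources used here. Reads from bases shared by a gene and its opposite-strand partner therefore cannot be told apart in these counts. Where they come from such bases, counts of a member below are a possible read-out of the ribosomal protein transcript across from it. Which bases are shared in the authors' annotation is not known.

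Library totals were low, from 91468 counts in an S45Y library to 326686 in a si-CTL library, and the plasmid libraries (at most 122304) held fewer counts than the siRNA libraries (at least 221767). The share of Rn45s, the ribosomal RNA precursor, was 12.9% ± 2.47 for S45Y and 12.6% ± 2.69 for eGFP, and it was 2.15% ± 0.463 for si-Ctnnb1 and 4.31% ± 1.03 for si-CTL (SD, n = 3 each). The targeted gene Ctnnb1 was counted 0, 11 and 3 times after its silencing against 13, 38 and 28 times with si-CTL, and 11, 4 and 18 times with S45Y against 6, 11 and 10 times with eGFP. Of 12 cholangiocyte markers 9 had counts, with Krt19, Krt8 and Krt18 among them, but Epcam, Cftr and Aqp1 were at 0 in all 12 libraries. Their summed level in CPM, counts scaled to a common library size, was 855 to 989 with si-Ctnnb1, 1009 to 1392 with si-CTL, 1533 to 2188 with eGFP and 1739 to 2219 with S45Y. Of 7 macrophage markers 3 had counts, and Ptprc, Adgre1, Lyz2 and C1qa were at 0. These markers summed to 180 to 218 CPM with si-Ctnnb1, 98.8 to 157 with si-CTL, 83.5 to 184 with eGFP and 80.1 to 165 with S45Y. For hepatocytes 4 of 8 markers had counts, up to 91.5 CPM in sum (Alb, Apoa1, Ttr and Cyp3a11 at 0), and for mesenchymal cells 5 of 8, up to 124 CPM (Col1a2, Col3a1 and Lum at 0).

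Positions were taken from GENCODE release M21 on mm10, since the build named for the alignment is mm10. In 4 pairs the genes converge and share bases at their 3′ ends. Cand2 (ENSMUSG00000030319.8) lies on chromosome 6 from 115774538 to 115805557 and shares 53 bases of exon with Rpl32, which is 0.968% of the exon bases of Cand2. Fam69a (ENSMUSG00000029270.10) lies on chromosome 5 from 107908053 to 107987085 and shares 953 bases with Rpl5, or 33.0% of its exon bases. Tbc1d8 (ENSMUSG00000003134.10) lies on chromosome 1 from 39371492 to 39478755 and shares 420 bases with Rpl31, 8.02% of its exon bases. Tlcd1 (ENSMUSG00000019437.17) lies on chromosome 11 from 78176711 to 78181909 and shares 506 bases with Rpl23a, of which 259 lie in the coding sequence of Rpl23a. The portion of the member that is shared was thus smallest for Cand2 and largest for Fam69a among these 4, and no shared base lay in the coding sequence of a member.

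The other 3 pairs are arranged differently. Nkiras1 (ENSMUSG00000021772.15), on chromosome 14 from 18271136 to 18284003, and Rpl15 stand head to head. They share 105 bases, through 1 of 5 coding transcripts of Rpl15. Sphk2 (ENSMUSG00000057342.15), on chromosome 7 from 45709467 to 45718002, and Rpl18 also stand head to head and share 373 bases, through 1 of 8 coding transcripts of Rpl18. Wdr38 (ENSMUSG00000035295.10), on chromosome 2 from 38997476 to 39006168, has the whole of Rpl35 within its span and shares 821 bases with it. Only 3 of these 821 bases remained when exons of protein-coding transcripts alone were used. The spans of the RefSeq genes of GRCm38.p6 overlapped in 6 of the 7 pairs, and those of Nkiras1 and Rpl15 were 149 bases apart. Some members also share exon bases with genes other than their partner, Nkiras1 with Ube2e1 (718 bases, opposite strand), Sphk2 with Dbp (539 bases, opposite strand) and Wdr38 with Arpc5l (62 bases, same strand).

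**Figure D1:**
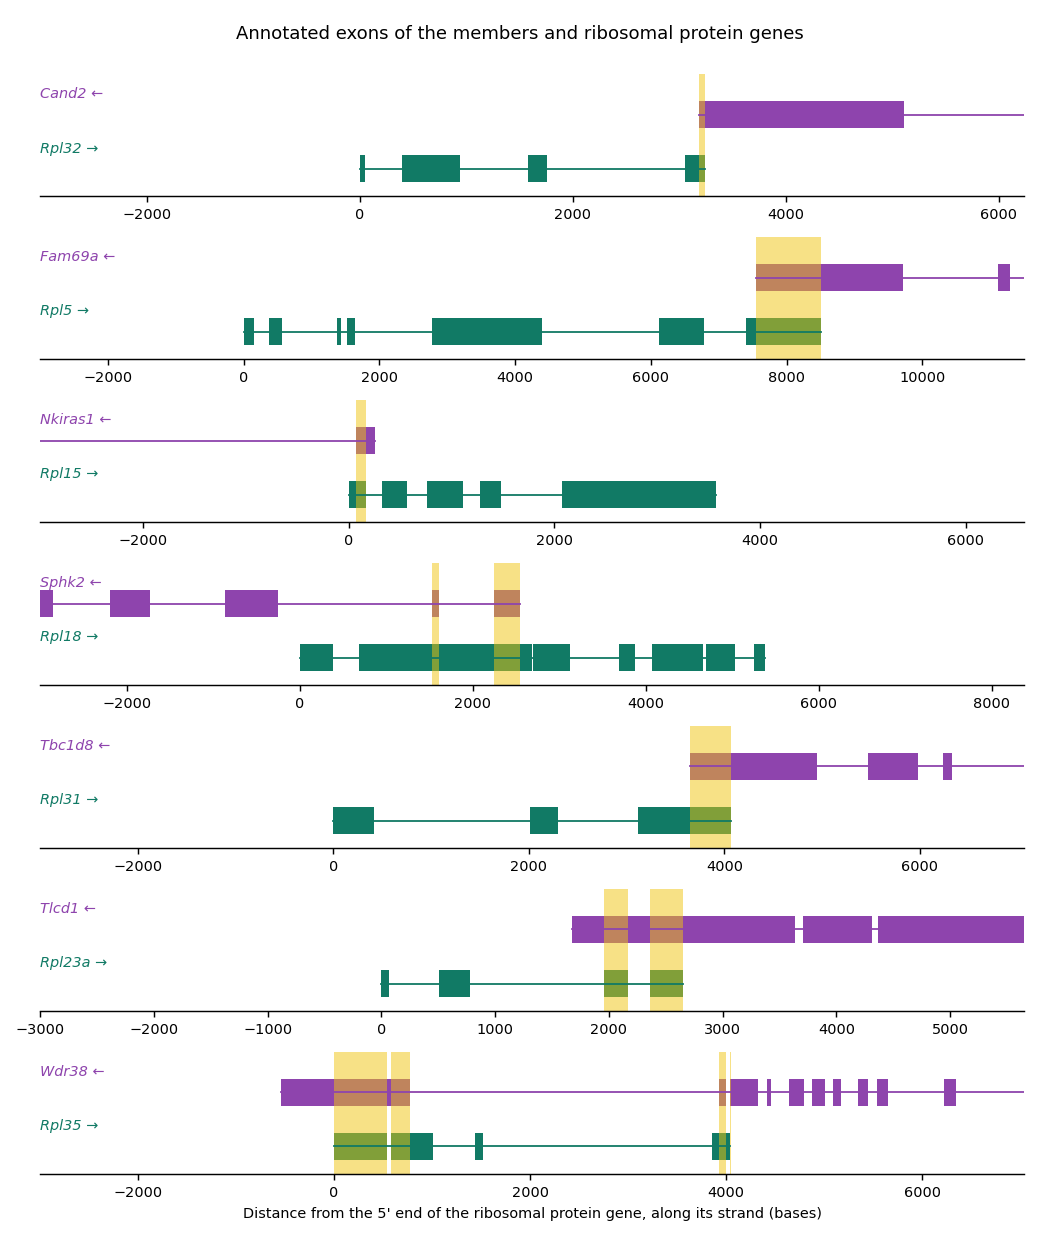
Exons of each member (purple, upper) and its ribosomal protein gene (green, lower), plotted by distance in bases from the 5′ end of the ribosomal protein gene along its strand, with arrows for the direction of transcription and yellow bands over shared exon bases. Boxes merge the exons of all annotated transcripts, and members are drawn only in the stretch around the ribosomal protein gene. The bands are narrow for Cand2 and Rpl32 (53 bases) and wide for Fam69a and Rpl5 (953 bases).

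A few stretches of sequence show how close the transcripts come. The last 30 bases of the Cand2 transcript in GENCODE (chr6:115805528-115805557, plus strand) are shown because they lie within the last exon of Rpl32, and the end of 1 Rpl32 transcript is the exact reverse complement of the last 53 bases of Cand2. They hold no AATAAA, the common polyadenylation signal. The 68 bases between the first base of Sphk2 and the start of Rpl18 in the RefSeq promoter table (chr7:45718003-45718070, plus strand, GRCm38.p6) are shown because they separate these starts, although the span of Rpl18 in GENCODE begins further upstream, within that of Sphk2, and 1 of its merged exons covers the stretch. The capitals in it mark CCGGAA read on the opposite strand, the core of the sites of ETS factors. The 68 bases between Nkiras1 and the nearest start of an Rpl15 coding transcript (chr14:18271068-18271135, minus strand, GRCm38.p6) serve the other head-to-head pair, and they hold no CCGGAA on either strand.
Cand2 end: tatttaaacataaaacatgcacacaagcca
Sphk2-Rpl18: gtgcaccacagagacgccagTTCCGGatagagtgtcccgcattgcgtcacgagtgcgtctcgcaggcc
Nkiras1-Rpl15: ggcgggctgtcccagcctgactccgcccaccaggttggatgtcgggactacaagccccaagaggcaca
Across both strands CCGGAA was found in 14.9% of the 32851 RefSeq windows of 300 bases around gene starts. It was found in 4 of the 5 partners that have a window, Rpl15, Rpl18, Rpl31 and Rpl35, and not in Rpl5. The GC content was 63.2% and 66.2% in the head-to-head stretches and lower, 30%, in the end of Cand2. A match of letters is not evidence of a bound site.

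The members held 22390 of 2424120 counts over the 12 libraries (0.924%), and their 7 partners held 1749, a ratio of 12.8. All 80 ribosomal protein genes of a list together held 17668 counts (0.729%), fewer than the 7 members, and 5 of these 80 had no count. Fam69a, a membrane protein of the endoplasmic reticulum related to protein kinases, had 6327 counts against 611 for Rpl5, which binds 5S ribosomal RNA. Cand2, a homologue of the factor that exchanges substrate adaptors on cullin ubiquitin ligases, had 5449 against 293 for Rpl32. Nkiras1, a Ras-like protein that binds IκB and slows its loss, had 3476 against 37 for Rpl15. Sphk2, a sphingosine kinase that forms sphingosine 1-phosphate, had 3192 against 114 for Rpl18. Tbc1d8, a protein with the TBC domain of Rab GTPase-activating proteins, had 2495 against 141 for Rpl31. Wdr38, a WD-repeat protein, had 776 against 243 for Rpl35, and Tlcd1, a membrane protein that acts on phospholipid composition, had 675 against 310 for Rpl23a, which sits near the exit tunnel of the ribosome. By total counts the members ranked between place 48 (Fam69a) and place 595 (Tlcd1) of the 24421 genes. All 7 had at least 10 counts in every library, as had 1020 genes in all.

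Since the members are mostly longer than their partners, levels were also compared per kilobase of exon. Counts per kilobase were higher in the member in 6 of 7 pairs. The ratio of counts per kilobase, member to partner, was 42.3 for Nkiras1, 27.2 for Sphk2, 14.0 for Fam69a, 5.61 for Tbc1d8, 3.27 for Cand2 and 1.38 for Wdr38. Tlcd1 was the exception at 0.368, with 135 counts per kilobase against 366 for Rpl23a. The median was 633 counts per kilobase for the members, 156 for their partners, 59.8 for the 80 ribosomal protein genes and 5.24 for the 14241 matched genes with a count. The same 6 members stayed above their partner when only exons of protein-coding transcripts were counted.

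By merged exons of all transcripts, the length of the stretch shared with the partner did not order the levels, which cover the whole gene. Cand2, with 53 shared bases, had 995 counts per kilobase, and Wdr38, with 821 shared bases, had 270. For Wdr38 the stretch was 3 bases by exons of protein-coding transcripts alone. Fam69a had both the longest shared stretch and the highest level, 2188 counts per kilobase. In counts alone Nkiras1 outnumbered its partner 93.9 times with 105 shared bases, and Tlcd1 2.18 times with 506. These lengths leave out overlaps with other opposite genes, 718 bases of Nkiras1 with Ube2e1 and 539 of Sphk2 with Dbp.

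Close paralogues of the members offered a level for the same kind of gene elsewhere in the genome. All 11 paralogues had fewer counts per kilobase than their member. Since the members were chosen for high counts and the paralogues were not, a lower level in the paralogues largely follows from the choice. The ratios are given as a description. The ratio of counts per kilobase, member to paralogue, ran from 10.004 (Wdr38 to Wdr5b) to 183 (Sphk2 to Sphk1) among the 9 paralogues with more than 3 counts. Cand1, the cullin exchange factor to which Cand2 is related, had 67 counts against 5449, and Sphk1, the other sphingosine kinase, had 20 against 3192. Fam69b had 493 counts and Fam69c none against 6327 for Fam69a, where a count of 0 allows up to 3. Of the 11 paralogues 9 have no opposite-strand exon overlap. The other two are Nkiras2, with an overlap of 352 bases and 34 counts against 3476 for Nkiras1 (66.6 times per kilobase), and Wdr5b, with an overlap of 168 bases and 74 counts against 776 for Wdr38, the smallest of the ratios.

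Of the small nucleolar RNAs hosted in introns of the partners, Snord4a and Snord42a, of Rpl23a, had 30 and 24 counts. Both lie across from exon bases of Tlcd1 (71 and 65 bases). Snora7a, of Rpl32, had 10 counts and Snord42b none.

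By exon overlap the table holds 16 pairs of a ribosomal protein gene and a gene across from it, with 14 ribosomal protein genes in all, and the members form 7 of these pairs. Over all 16 pairs the opposite gene had more counts in 8. These were all 7 pairs of the members, as they were chosen, and 1 of the other 9. Those 9 are the pairs that the choice left out, so the contrast follows in part from the choice. That 1 is Kank3, of a family of cytoskeletal adaptors, with 787 counts against 33 for Rps28 and 88 shared bases. In the other 8 the ribosomal protein gene was higher, as for Rps25 with 568 counts against 422 for Ccdc84 and 52 for Trappc4, or Rpl12 with 459 against 263 for Lrsam1. Rps27a had 89 counts against 80 for Clhc1, Rpl28 138 against 8 for Ube2s, Rps18 51 against 5 for Vps52 and Rps2 105 against 0 for Snhg9. Rpl35, the partner of Wdr38, had 243 against 123 for Arpc5l. The median total was 243 counts for the 7 partners, 139.5 for all 14 overlapped ribosomal protein genes and 128 for the 66 that no table gene overlaps on the other strand.

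Next, the members were followed across the 4 groups. Summed over the 7, they made up 1.04% ± 0.0593 of all counts with si-Ctnnb1 and 0.902% ± 0.0548 with si-CTL, and 0.763% ± 0.0632 with S45Y and 0.794% ± 0.0537 with eGFP (SD, n = 3 each). In the same order the 80 ribosomal protein genes made up 0.722% ± 0.0294, 0.692% ± 0.103, 0.763% ± 0.0378 and 0.774% ± 0.0315. Levels are given in CPM after scaling by the TMM method, and since the RNA is from bulk cultures, fewer expressing cells and less RNA per cell cannot be told apart.

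**Figure D2:**
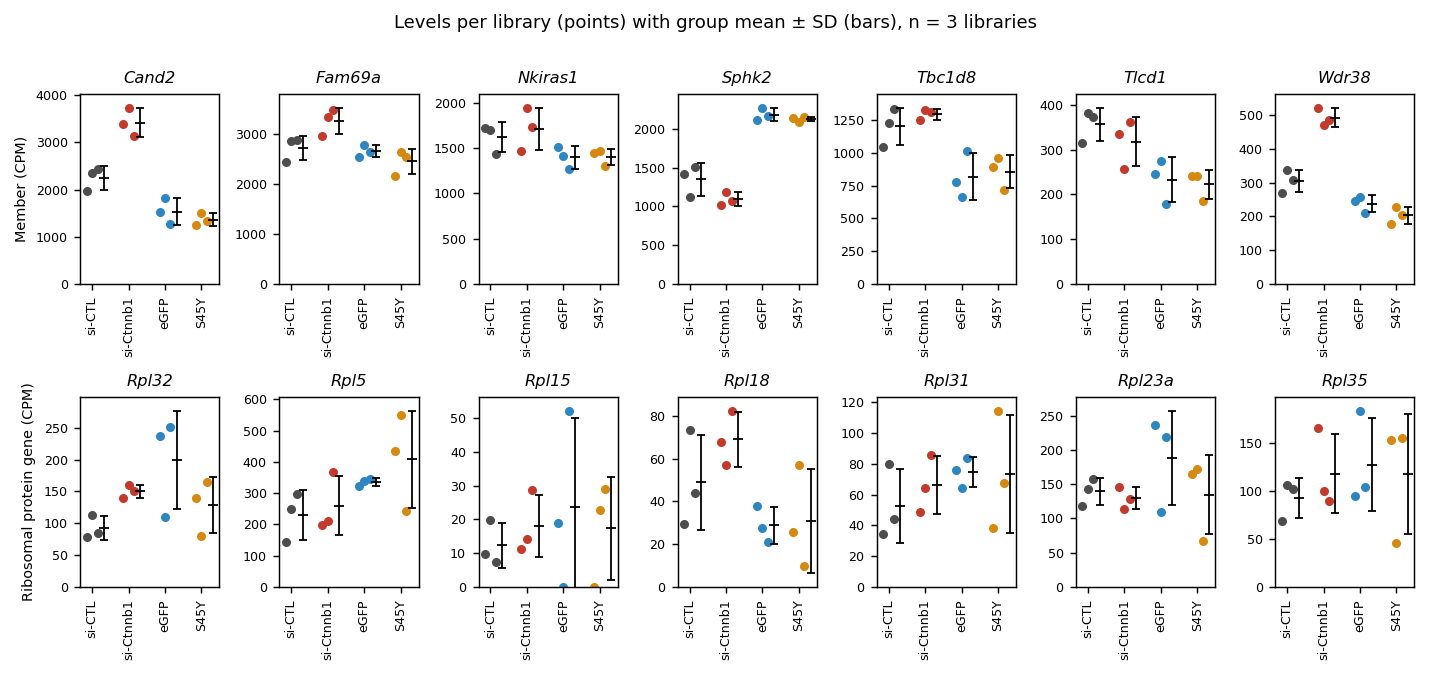
Level in CPM of each member (upper row) and its ribosomal protein gene (lower row) in the 3 libraries of each group, with the mean ± SD of each group as a bar at the right of its points. Every axis starts at 0 and has its own scale. Cand2 and Wdr38 have all si-Ctnnb1 libraries above all others, and Sphk2 has all eGFP and S45Y libraries above all siRNA libraries.

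The first comparison asks whether the members changed when β-catenin was silenced, si-Ctnnb1 against si-CTL. Cand2 and Wdr38 rose, 2 of 7 members, where 1.55% of all genes tested were called (54 of 3484). The other 5 did not pass the test. Cand2 had 400, 705 and 668 counts in si-CTL and 904, 1050 and 874 in si-Ctnnb1. Its level was 2254 ± 252 CPM in si-CTL and 3423 ± 307 CPM in si-Ctnnb1 (SD, n = 3 each), and the groups did not overlap. This is a log2 fold change of 0.58 with a standard error of 0.09 (adjusted p = 9.65e-05 by the quasi-likelihood test of edgeR, adjusted after Benjamini and Hochberg over all genes tested), and ordered by p it stood at place 6. Wdr38 had 55, 101 and 84 counts in si-CTL and 139, 132 and 136 in si-Ctnnb1. Its level was 305 ± 32.9 CPM against 493 ± 26.8 CPM, again with no overlap (log2 fold change 0.66, standard error 0.17, edgeR adjusted p = 0.0305). Without any 1 of the 6 libraries the call of Wdr38 was lost (edgeR adjusted p from 0.0540 to 0.117), while that of Cand2 held (up to 0.00367). The summed macrophage markers were also higher in every si-Ctnnb1 library than in every si-CTL library (180 to 218 against 98.8 to 157 CPM), and the summed cholangiocyte markers lower (855 to 989 against 1009 to 1392 CPM). Of the 3 macrophage markers with counts, Cd14 moved most, from a mean of 34.3 CPM in si-CTL to 84.3 in si-Ctnnb1. Cd68 went from 73.7 to 79.0 CPM and Csf1r from 26.3 to 37.4. The part of these marker sums in the results was not tested.

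Counted in the direction of both calls, 0.804% of all genes tested were called higher. The groups did not overlap in CPM for 3 members, Cand2, Wdr38 and Fam69a, beside 17.8% of all genes tested. Fam69a had 496, 858 and 785 counts in si-CTL and 789, 938 and 972 in si-Ctnnb1 (log2 fold change 0.24, standard error 0.09, edgeR adjusted p = 0.183). Sphk2 went the other way, with 288, 335 and 413 counts against 271, 334 and 299 (log2 fold change -0.32, standard error 0.12, edgeR adjusted p = 0.179). Neither passed, and the groups of Sphk2 overlapped. Counts of Nkiras1 were 350, 511 and 392 with si-CTL and 389, 543 and 482 with si-Ctnnb1, those of Tbc1d8 213, 368 and 364 against 332, 372 and 367, and those of Tlcd1 64, 115 and 102 against 89, 72 and 101. In CPM the groups overlapped for all 3, with log2 fold changes of 0.06 for Nkiras1 (standard error 0.11), 0.08 for Tbc1d8 (0.11) and -0.20 for Tlcd1 (0.19). Leaving out a library moved Tbc1d8 between 0.0155 and 0.16 and Tlcd1 between -0.29 and -0.057.

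The partners were measured with far fewer counts, and none passed the test after silencing. Rpl32 had 16, 34 and 23 counts in si-CTL and 37, 45 and 42 in si-Ctnnb1, which is 92.0 ± 18.5 CPM against 150 ± 10.6 CPM with no overlap. Its log2 fold change of 0.67 (standard error 0.28, edgeR adjusted p = 0.279) was close in size to the 0.58 of Cand2 across from it. Rpl35 had a log2 fold change of 0.31 (standard error 0.32) beside the 0.66 of Wdr38. For the others the log2 fold changes were 0.13 for Rpl5, 0.43 for Rpl18, 0.28 for Rpl31 and -0.14 for Rpl23a, with standard errors from 0.24 to 0.42. With a library left out, Rpl18 ran from 0.22 (without si-CTL replicate 1) to 0.86 (without si-CTL replicate 2), Rpl31 from 0.0551 (without si-Ctnnb1 replicate 3) to 0.72 (without si-CTL replicate 2), and Rpl23a from -0.22 to -0.0439 (without si-Ctnnb1 replicates 1 and 2). Rpl15 had too few counts to be tested, 2, 6 and 2 in si-CTL and 3, 4 and 8 in si-Ctnnb1.

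Of the ribosomal protein genes as a list, 55 of 80 could be tested and 0 passed, with 7 at an unadjusted p under 0.05 (5 higher, 2 lower), where 12.5% of all genes were. Their median log2 fold change was 0.09, beside -0.00 for all genes tested. Translation factors, a further list of highly expressed genes of the same function, gave 0 of 11 called.

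The second comparison asks the same for stable β-catenin, S45Y against eGFP. No member and no partner passed, as did none of the 1819 genes tested (0%), and in 0 of 7 members did the groups separate in CPM, beside 11.1% of all genes. Counts of Cand2 were 161, 198 and 121 with eGFP and 98, 132 and 138 with S45Y, or 1535 ± 278 CPM against 1365 ± 133 CPM (log2 fold change -0.13, standard error 0.16). Wdr38 had 26, 28 and 20 counts against 14, 20 and 21, or 237 ± 25.4 CPM against 204 ± 25.2 CPM (log2 fold change -0.18, standard error 0.35). Sphk2 was nearly level, with 2186 ± 83.7 CPM in eGFP and 2128 ± 30.5 CPM in S45Y (log2 fold change 0.00, standard error 0.15). Fam69a had 269, 303 and 253 counts with eGFP and 170, 231 and 263 with S45Y, and Nkiras1 had 159, 154 and 121 against 113, 128 and 134. Tbc1d8 had 82, 72 and 97 against 70, 84 and 74, and Tlcd1 had 26, 30 and 17 against 19, 21 and 19. Scaled to library size, these 4 gave log2 fold changes of -0.07 (Fam69a), 0.04 (Nkiras1), 0.11 (Tbc1d8) and -0.04 (Tlcd1), with standard errors from 0.14 to 0.35. Leaving out a library moved Cand2 between -0.28 (without eGFP replicate 3) and -0.00537 (without eGFP replicate 2). Wdr38 then lay between -0.29 and -0.12, and Fam69a between -0.14 and -0.0127. At an unadjusted p under 0.05 stood 107 genes (5.88%) by edgeR, with 0 members among them, and DESeq2 also called 0 genes. Of the partners 4 could be tested, with log2 fold changes of -0.57 for Rpl32, 0.31 for Rpl5, -0.47 for Rpl23a and -0.07 for Rpl35 and standard errors from 0.30 to 0.50. With a library left out, Rpl32 ran from -0.88 (without eGFP replicate 2) to -0.34 (without S45Y replicate 2), Rpl5 from 0.0147 to 0.56 (without S45Y replicates 2 and 3), and Rpl23a from -0.75 (without eGFP replicate 2) to -0.15 (without S45Y replicate 3).

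The difference between the treatments was itself tested in 1 fit of all 12 libraries, as the S45Y effect minus the si-Ctnnb1 effect. Cand2 was the 1 member that passed, with a difference of -0.77 on the log2 scale (standard error 0.19, edgeR adjusted p = 0.0234), among 16 of 2996 genes (0.534%). Wdr38 had a difference of -0.91 (standard error 0.36, edgeR adjusted p = 0.324) and Rpl32 one of -1.29 (standard error 0.50, edgeR adjusted p = 0.303), and neither passed. The call of Cand2 was lost without any 1 of 7 libraries, eGFP replicates 1 and 2, S45Y replicates 1 and 3, si-CTL replicate 1 and si-Ctnnb1 replicates 1 and 2 (edgeR adjusted p from 0.0606 to 0.191).

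**Figure D3:**
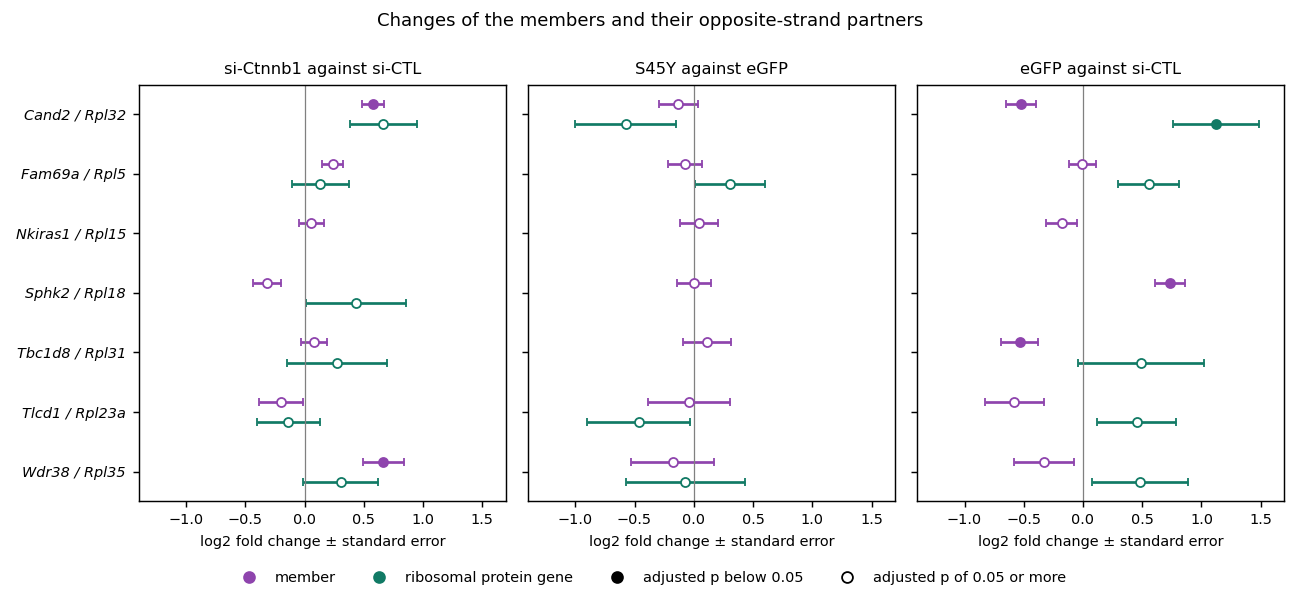
Log2 fold change with its standard error for each member (purple) and its ribosomal protein gene (green) in the 3 comparisons, from edgeR fits of 6 libraries each. Filled points have an adjusted p below 0.05, and a gene with no point had too few counts to be tested. Cand2 and Wdr38 are filled on the left, none in the middle, and Cand2, Tbc1d8, Sphk2 and Rpl32 on the right.

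The third comparison sets the 2 controls side by side, eGFP against si-CTL. Plasmid and siRNA, the transfection reagent and the hours of culture differ together between them and cannot be told apart, and so do depth and the Rn45s share given above. The summed cholangiocyte markers were also higher in every eGFP library (1533 to 2188 against 1009 to 1392 CPM), and their part in the results was not tested. Of all genes tested 16.9% were called (415 of 2459), against 3 of 7 members, and in 5 members the groups did not overlap in CPM, beside 31.7% of all genes. Sphk2 had 288, 335 and 413 counts in si-CTL and 223, 248 and 208 in the smaller eGFP libraries. Scaled to library size it rose from 1348 ± 207 CPM to 2186 ± 83.7 CPM (log2 fold change 0.73, standard error 0.13, edgeR adjusted p = 1.5e-05). Cand2 fell, from 2254 ± 252 CPM to 1535 ± 278 CPM (log2 fold change -0.52, standard error 0.13, edgeR adjusted p = 0.00233).

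Tbc1d8 fell as well, from 213, 368 and 364 counts to 82, 72 and 97, or from 1202 ± 144 CPM to 817 ± 179 CPM (log2 fold change -0.53, standard error 0.16, edgeR adjusted p = 0.0113). This call was lost without eGFP replicate 2 (edgeR adjusted p = 0.102). Tlcd1 and Wdr38 were lower in every eGFP library than in every si-CTL library, with log2 fold changes of -0.58 (standard error 0.25) and -0.33 (standard error 0.25), and did not pass. Nkiras1 (-0.18) and Fam69a (-0.00) did not separate. Among all genes 7.93% were called higher and 8.95% lower. With no filter on low counts the median log2 fold change of the same 2459 genes moved from 0.01 to -0.27, and 71 genes were called higher and 345 lower (3.15% of the genes tested), against 195 and 220 with the filter. In that setting Sphk2 was at 0.45, Cand2 at -0.80, Tbc1d8 at -0.82, Wdr38 at -0.61 and Fam69a at -0.29, and Tlcd1 (-0.86, edgeR adjusted p = 0.0287) and Nkiras1 (-0.46, edgeR adjusted p = 0.0409) passed.

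Of the partners 5 could be tested between the controls, and Rpl32 alone passed, with a log2 fold change of 1.12 (standard error 0.36, edgeR adjusted p = 0.0240), where 16.9% of all genes tested were called and 7.93% called higher. The other 4 did not pass, at 0.56 for Rpl5, 0.49 for Rpl31, 0.48 for Rpl35 and 0.45 for Rpl23a. With no filter on low counts these values were 0.83 for Rpl32, 0.27 for Rpl5, 0.21 for Rpl31, 0.20 for Rpl35 and 0.16 for Rpl23a. With a library left out Rpl5 went down to 0.30 (without si-CTL replicate 1), Rpl23a to 0.20 (without eGFP replicate 1) and Rpl35 to 0.0756 (without eGFP replicate 2). Rpl32 had 16, 34 and 23 counts in si-CTL and 25, 12 and 24 in eGFP, or 92.0 ± 18.5 CPM against 199 ± 77.3 CPM. The groups overlapped, since si-CTL replicate 2 was at 113 CPM and eGFP replicate 2 at 110 CPM. Its call was lost in 7 of 12 alternatives, without eGFP replicate 1 or 3 or si-CTL replicate 1 or 3 (edgeR adjusted p from 0.0639 to 0.195), with no filter (0.306), with the replicate block (0.0506) and with DESeq2 (adjusted p = 0.0867). Of 40 ribosomal protein genes tested 2 were called, below the 16.9% of all genes, and both were higher, Rpl32 and Rpl3 (log2 fold change 1.49, standard error 0.48, edgeR adjusted p = 0.0228). Positive log2 fold changes were found in 29 of the 40, and their median was 0.21, beside 0.01 for all genes. Kank3, opposite Rps28, had a log2 fold change of -0.51 (standard error 0.24, edgeR adjusted p = 0.134), and Fam69b, the paralogue of Fam69a with no overlap, was called lower, with a log2 fold change of -1.26 (standard error 0.32, edgeR adjusted p = 0.00381).

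How a pair's counts divide was measured as the member's share, its counts over those of the member and partner together. This share needs no scaling between libraries. Of the 84 shares, 7 pairs in 12 libraries, 83 were above 50%, and they ran from 44.7% (Tlcd1 in an eGFP library) to 100% (Nkiras1 where Rpl15 had no count). A share above 50% mostly restates the choice of the members, which had more counts than their partner. In si-CTL the mean shares were 99.3% for Nkiras1, 96.3% for Sphk2, 96.1% for Cand2, 95.8% for Tbc1d8, 92.4% for Fam69a, 76.9% for Wdr38 and 72.0% for Tlcd1. Over the 3 si-CTL libraries, Sphk2, Cand2, Tbc1d8 and Fam69a each overlapped the next in this order, whereas Nkiras1 lay above Sphk2, Wdr38 below Fam69a, and Tlcd1 below Wdr38 in every library. Counting error alone was small for Cand2, with a 95% Wilson interval of 95.1% to 96.8% over the summed si-CTL counts, and wide for Tlcd1, 67.2% to 76.1%. In the shallower eGFP libraries the interval of Tlcd1 was 47.2% to 63.9%.

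Silencing left the shares overlapping in all 7 pairs. For Cand2 the share was 96.2%, 95.4% and 96.7% in si-CTL and 96.1%, 95.9% and 95.4% in si-Ctnnb1, although its own count rose. The means differed by -0.284 percentage points, with a two-sided exact permutation p of 0.5, where 0.1 is the smallest that 3 libraries against 3 allow. For Wdr38 the share was 79.7%, 75.9% and 75.0% in si-CTL and 76.0%, 82.5% and 84.5% in si-Ctnnb1 (two-sided exact permutation p = 0.2). Sphk2 had 97.96%, 93.8% and 97.2% against 93.8%, 95.4% and 92.9% (two-sided exact permutation p = 0.2). Among all 660 pairs of overlapping opposite genes with at least 10 counts of the pair in every library, 13.6% did not overlap between these groups. In S45Y against eGFP 0 of 7 separated, beside 7.12% of the 660 pairs. With si-CTL replicate 2 left out, 4 of the 7 separated after silencing, beside 22.1% of the 660 pairs without the same library. With eGFP replicate 2 left out 2 of the 7 separated in S45Y, beside 14.7%.

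Between the controls 5 of 7 shares did not overlap, beside 24.4% of the 660 pairs. In 4 the share was lower in eGFP, Cand2 (88.1% ± 5.58 against 96.1% ± 0.640), Fam69a (88.8% ± 0.328 against 92.4% ± 1.95), Tbc1d8 (91.5% ± 0.725 against 95.8% ± 1.69) and Wdr38 (65.7% ± 6.99 against 76.9% ± 2.49; SD, n = 3 each). Sphk2 was the exception, with 98.7% ± 0.416 in eGFP against 96.3% ± 2.19 in si-CTL. Each of the 5 had a two-sided exact permutation p of 0.1, the smallest possible, so none could reach the threshold. Tlcd1 had a lower mean in eGFP, 55.7% ± 14.0 against 72.0% ± 1.39, and overlapped because eGFP replicate 2 was at 71.4%. Nkiras1 stayed near the top, at 98.3% ± 2.03 against 99.3% ± 0.361.

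**Figure D4:**
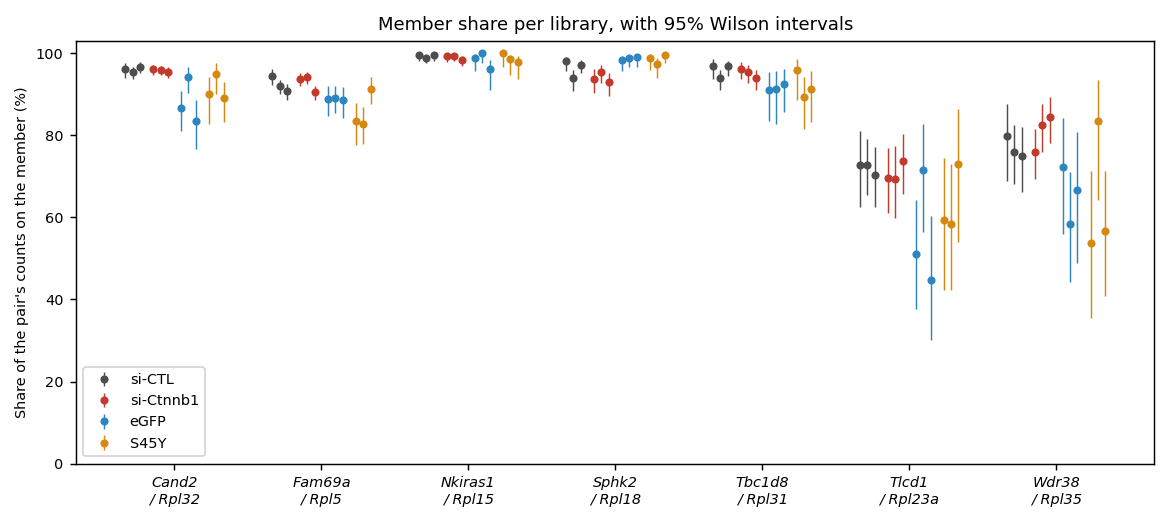
Share of each pair's counts that fell on the member, in percent, for the 12 libraries, with 95% Wilson intervals that cover counting error only. Colours mark the 4 groups. The shares of Tlcd1 and Wdr38 lie lowest and have the widest intervals, and those of Cand2, Fam69a, Tbc1d8 and Wdr38 are lower in eGFP than in si-CTL.

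The members did not move as 1 group over the 12 libraries. Relative to its mean over all libraries, Cand2 was at 1.46 to 1.74 in si-Ctnnb1, at 0.918 to 1.14 in si-CTL and at 0.582 to 0.848 in the plasmid libraries. Wdr38 followed a like course, at 1.52 to 1.69, 0.874 to 1.09 and 0.576 to 0.830. Sphk2 ran the other way, at 0.603 to 0.704 in si-Ctnnb1, 0.661 to 0.895 in si-CTL and 1.24 to 1.35 with plasmid.

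**Figure D5:**
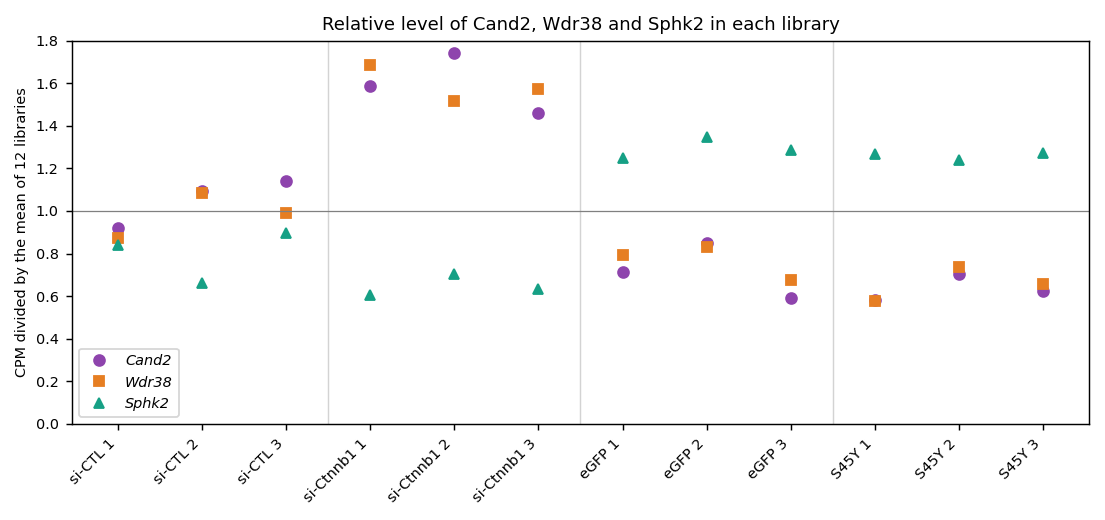
CPM of Cand2, Wdr38 and Sphk2 in each of the 12 libraries divided by the gene's mean over them, with the line at 1 marking that mean and grey lines between groups. Cand2 and Wdr38 are highest in the si-Ctnnb1 libraries (1.46 to 1.74 and 1.52 to 1.69), where Sphk2 is at 0.603 to 0.704.

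As a description of likeness, the Pearson correlation of log2 CPM over the 12 libraries was taken between each member and the 1019 other genes with at least 10 counts in every library. The libraries share transfection and depth within groups, so the coefficients mostly compare group levels. The gene most like Cand2 was Wdr38 (r = 0.98), on another chromosome, and that most like Wdr38 was Sla2 (r = 0.98), an adaptor of lymphocyte receptors whose exons overlap 1110008F13Rik by 731 bases on the opposite strand. For Fam69a it was Gm16796 (r = 0.91), which shares 639 bases with Pfdn4, for Nkiras1 Tmod1 (r = 0.91), which shares 1287 with Tstd2, and for Tlcd1 Paqr4 (r = 0.88), which shares 319 with Pkmyt1. Sphk2 was most like Cenpf (r = 0.96), a kinetochore protein, and Tbc1d8 most like AV051173 (r = 0.93), and neither of these has an opposite-strand exon overlap in the table. The share of the 1019 genes with such an overlap is not given here, so no conclusion is drawn from the overlaps named. They are not rare at this level, since 660 pairs of overlapping opposite genes had at least 10 counts of the pair in every library. Of the partners Rpl5 alone had 10 counts in every library, and its coefficient with Fam69a was -0.15.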

How the data were processed

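RNA-seq libraries of SMCCs, 3 for each of 4 transfections, were analysed from the count table that the authors deposited. The authors filtered reads with Trimmomatic 0.38, aligned them to mm10 (HISAT2 2.1.0) and assigned them to gene symbols (HTSeq 0.11.2). These counts are whole numbers without normalization, and replicates are kept apart. The annotation, the strand setting and the read type are not given in the sources used here.

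Tests were run in edgeR 4.0.16 under R 4.3.3. Low genes were removed by filterByExpr (minimum count 10, minimum total count 15), scaled by TMM and tested by the quasi-likelihood test (prior count 0.125) over the whole table, on 6 libraries per comparison. A gene was called at a Benjamini-Hochberg adjusted p below 0.05. Of the 24421 symbols, 24029 were matched to GENCODE M21, 23376 by their own symbol and the rest through RefSeq synonyms. Counts per kilobase used merged exons of all transcripts. Shares were compared by two-sided exact permutation tests, and intervals and floors (up to 3 counts for a count of 0) cover counting error only. Library totals were low, between 91468 and 326686 counts, and their part in the precision was not tested.

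Alternatives were DESeq2 1.42.0, other scaling, no filter, 1 fit of 12 libraries, a replicate block and each library left out. Code was tested on simulated counts. The genes named include the members and partners, some of the paralogues, hosted small nucleolar RNAs, and the gene most like each member. All ribosomal protein genes with an opposite overlap or a call are named too. Ctnnb1, Rn45s, cell type markers and other genes that overlap a member are named beside these. The members and lists were chosen with earlier results of these data known, and the background of 660 pairs after the shares were seen. No duplicate libraries were found (chi-square over degrees of freedom 2.15 to 3.11 between replicates). Replicate numbers did not pair the libraries (correlations of -0.05 to 0.03).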

Additional observations from a re-analysis of the deposited data

Results flagged for a closer look

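For Cand2 the test of the difference between the effects of silencing and of stable β-catenin passed, but it did not in 9 of 17 alternatives. The difference of the S45Y effect minus the si-Ctnnb1 effect was -0.77 on the log2 scale in the fit of all 12 libraries (standard error 0.19, edgeR quasi-likelihood test, Benjamini-Hochberg adjusted p = 0.0234), beside 0.534% of genes called. The adjusted p was 0.0675 with library totals only, 0.0715 with no filter on low counts and 0.0606 to 0.191 without any 1 of 7 libraries, and it ran from 0.0106 to 0.191 over all alternatives by edgeR and DESeq2. Cand2 was higher in 3 of 3 si-Ctnnb1 libraries than in every si-CTL library, while S45Y and eGFP overlapped. The Rn45s share moved as well, from 4.31% in si-CTL to 2.15% in si-Ctnnb1, beside 12.6% in eGFP and 12.9% in S45Y, and its part in the result was not tested.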

How the results depend on the processing

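In 249 of 286 refits the log2 fold changes of members kept their direction and their side of the threshold. After silencing, genes called ran from 31 to 49 with a library left out. Without any 1 library, and in the fit of all 12 libraries, 1 member was called, Cand2. Wdr38 did not pass in these fits (edgeR adjusted p = 0.0897 in the fit of all 12 libraries). Between the controls 5 members were called with no filter on low counts, beside 416 of 13222 genes (3.15%), adding Nkiras1 (-0.46, edgeR adjusted p = 0.0409) and Tlcd1 (-0.86, 0.0287), in a setting where the median of the genes tested with the filter lay at -0.27 in place of 0.01. With a library left out 2 to 3 were called, among 312 to 383 genes. DESeq2's Wald test put that median at -0.11 (37.3% of its calls higher, against 47% by edgeR, and after silencing 66.7% against 51.9%), and Rpl32 did not pass with no filter (0.306), with DESeq2 (0.0867) or with the replicate block (0.0506). The replicate block gave 64, 0, 373 and 17 genes for silencing, activation, controls and the difference, and changed no member's call. For the difference, 5 to 22 genes and 0 to 1 members were called with a library left out, and 0 members with library totals only (Cand2, edgeR adjusted p = 0.0675) or with no filter (0.0715). With a library left out, shares that did not overlap numbered 0 to 4 after silencing (21.8% to 22.7% of the 660 pairs), 0 to 2 in S45Y (13.8% to 18%) and 5 to 7 between the controls (30.3% to 38.2%). Values near 0 changed sign. In S45Y, Sphk2 went to -0.014 with DESeq2's size factors, -0.0277 with library totals only, -0.027 with no filter, -0.0332 with DESeq2's test and -0.0389 in the fit of all 12 libraries. With a library left out it ran from -0.0393 to 0.0182, Nkiras1 from -0.0483 to 0.0863, Tbc1d8 from -0.0373 to 0.26, Tlcd1 from -0.23 to 0.0787 and Rpl35 from -0.37 to 0.30. After silencing Nkiras1 ran from -0.0343 to 0.16, Rpl5 from -0.20 to 0.35 and Rpl35 from -0.00126 to 0.48, and between the controls Fam69a from -0.10 to 0.00358, beside -0.29 with no filter and -0.13 with DESeq2. The causes were not tested. The partners had fewer total counts than the members, with Rpl15 at 0 to 8 counts per library.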
